A study of Homo sapiens with 6 samples.

Results

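The 10 genes described here, MDM2, GDF15, BBC3, SESN1, SESN2, BTG2, FDXR, TP53I3, ZMAT3 and RRM2B, are well-known transcriptional targets of the tumour suppressor p53 and were chosen by name. All 10 were found by their Ensembl IDs among the 58051 genes counted, and all 10 were among the 20536 genes with enough counts to be tested. They were compared between cells overexpressing RBFOX1, an RNA-binding protein of neurons that regulates splicing and mRNA stability, and cells expressing GFP in its place. Both groups were A172 cells, an established human glioblastoma line, transduced with lentivirus made in HEK293T cells and stably carrying either the GFP or the RBFOX1 open reading frame, so the GFP controls share the vector and the transduction. The labels and methods do not say whether the stable lines were pools or clones. Each group had 3 libraries, described by the study as biological replicates.

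p53 binds DNA as a tetramer at a pair of adjacent decamers and switches on genes that halt the cell cycle, repair DNA, alter metabolism or kill the cell. Its level is held down by MDM2, a ubiquitin ligase that is itself a p53 target, which closes a feedback loop. In glioblastoma the pathway is often disabled, among other ways, through MDM2 or MDM4 amplification or loss of CDKN2A, whose product ARF inhibits MDM2. A172 is known to lack CDKN2A, and that gene had 0 counts in each of the 6 libraries.

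Counts on genes totalled 7433414 to 23249221 per library, the fewest in RBFOX1 replicate 1 and the most in GFP replicate 1, and 52.0 to 61.9% of read pairs were counted on a gene. Read pairs left uncounted because they overlapped more than one gene made up 8.89 to 9.35% in GFP and 6.89 to 7.94% in RBFOX1 libraries. RBFOX1 itself had 4, 0 and 1 counts in the GFP libraries and 10276, 16467 and 21451 in the RBFOX1 libraries, as labelled. Of the markers of the line, VIM, CD44, NES and EGFR were abundant, whereas the astrocyte markers GFAP and S100B were at most at 4 and 2 counts. VIM was lower in RBFOX1 cells by a log2 fold change of -0.65 (adjusted p = 6.56e-10) and CD44 by -0.90 (adjusted p = 6.75e-09), NES was higher by 0.60 (adjusted p = 6.08e-09), and EGFR was at -0.12 (adjusted p = 0.178), and the part of these differences in the results below was not tested.

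Levels below are normalized counts, that is, counts scaled by TMM to the mean effective library size, and fold changes are log2 ratios of RBFOX1 over GFP with their standard error (SE). Adjusted p-values come from edgeR's quasi-likelihood test over all genes tested, with a threshold of 0.05. In these bulk samples, fewer cells expressing a gene and less RNA per cell cannot be told apart.

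Because the genes are grouped by the factor that binds them, the sites matching the 20-base p53 consensus near their starts are shown first. Within 2000 bases on each side of the canonical start, a match with at most 2 mismatches and no spacer was present in 6 of the 10 genes, against 9.25% of 20044 genes given the same 4000-base window, and in 23 of the 60 other p53 targets listed for comparison. The consensus reads the same on both strands. The capitals mark the 4-base core of each decamer, and each sequence is given 5′ to 3′ on the strand of its gene in GRCh38.
ZMAT3: aaaCAAGtccagaCATGcct
MDM2: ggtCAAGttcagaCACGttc
GDF15: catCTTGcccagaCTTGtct
BBC3: gggTCTGcccaggCATGtcc
BTG2: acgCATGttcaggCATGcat
TP53I3: ataCATCctcagaCATGttt
The ZMAT3 sequence, at chr3:179070188-179070207 on the minus strand, lies in an intron 1602 bases past the start and matched with 0 mismatches, and a match with at most 1 mismatch was found in 0.699% of all windows. The MDM2 sequence, at chr12:68808923-68808942 on the plus strand, is intronic, 746 bases past the start, and carried 2 mismatches, as did those of the next 4 genes. It also falls within 2 of the MDM2 promoters of RefSeq, which were the only 2 of 16 RefSeq promoters of 9 members to hold a match, against 0.649% of 35116 promoters of 300 bases. The sequences of GDF15 (chr19:18385308-18385327, plus strand), BBC3 (chr19:47232568-47232587, minus strand), BTG2 (chr1:203303642-203303661, plus strand) and TP53I3 (chr2:24086781-24086800, minus strand) lie upstream of the start, at -850, -1388, -1877 and -1966 bases. A looser pattern on either strand, CATGNNNNNNCATG, was present in 2 members, BTG2 and SESN2, and in 11.7% of all windows. These are matches of letters, not measured binding.

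Of the 10 genes, 9 were lower and 1 was higher in RBFOX1 cells. Across all genes tested, 22.9% were called lower and 23.7% higher, together 46.7%, so a call alone was common, and among the 12012 genes whose normalized counts averaged 50 or more, which include all 10 members, 63.8% were called, 33.4% lower and 30.4% higher. In none of the 10 did the values of the 3 GFP and 3 RBFOX1 libraries overlap, a separation seen in 53.4% of all genes tested, 26.5% with RBFOX1 lower and 26.9% with RBFOX1 higher. At a stricter adjusted p under 0.01 the counts stayed at 9 and 1, while 37.5% of all genes were called, 18.4% lower and 19.2% higher. Against a minimum fold of 1.5, tested with glmTreat, MDM2, BTG2, ZMAT3 and RRM2B were lower and 0 members higher, where 13.5% of all genes were called, 5.17% lower and 8.33% higher. The median log2 fold change of the 10 was -0.67, against 0.0051 for all genes tested.

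**Figure D1:**
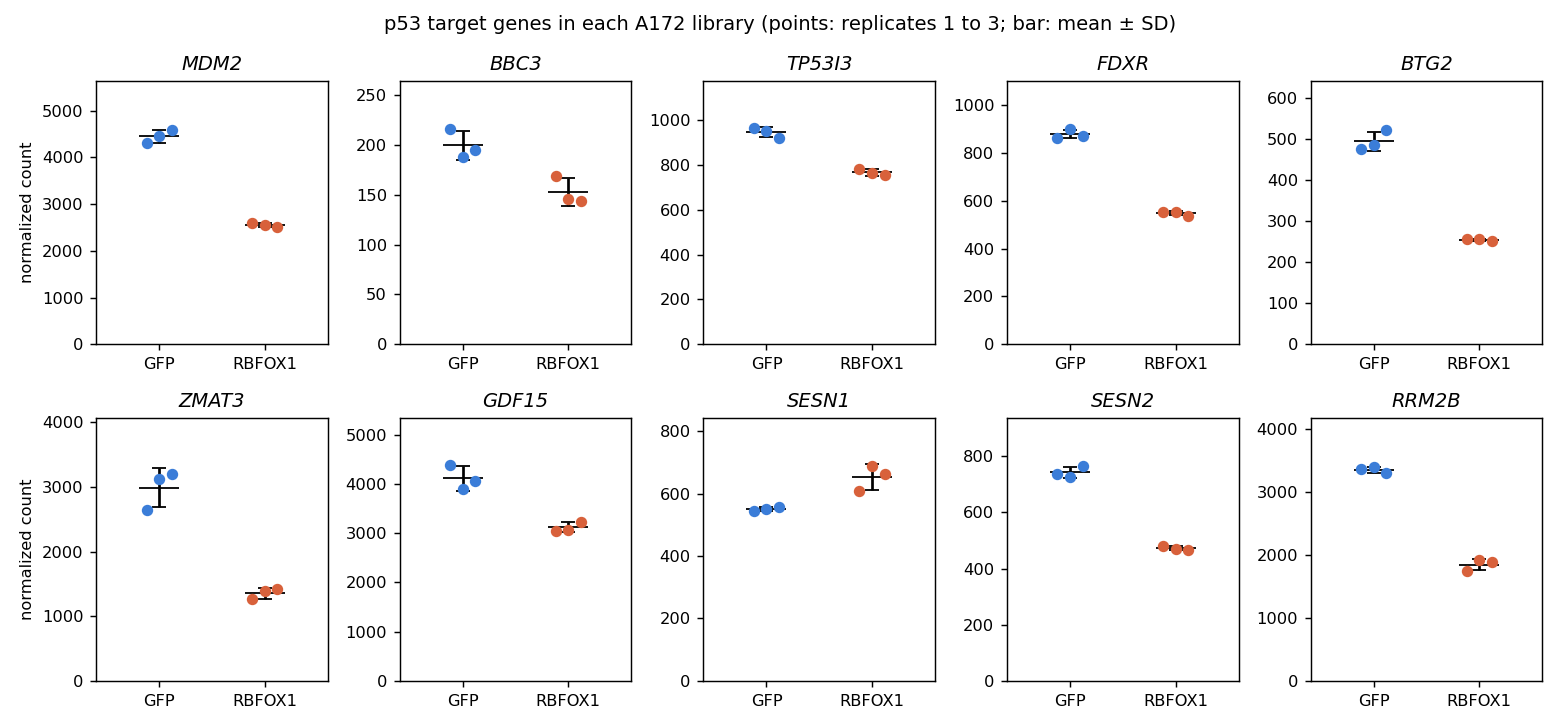
Normalized counts of the 10 genes in each library; points are single libraries, bars are group means ± SD, and each panel has its own linear axis from 0. The GFP points lie above the RBFOX1 points in each panel except that of SESN1, where the order is turned.

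MDM2 (ENSG00000135679, chr12:68808177-68845544, plus strand), the ligase that marks p53 for degradation, had 4315, 4462 and 4591 normalized counts in the GFP libraries and 2605, 2548 and 2513 in the RBFOX1 libraries. The 3 RBFOX1 libraries lay far below the lowest GFP library and close to one another. The mean fell from 4456 ± 138 to 2555 ± 46.3 (SD over 3 libraries), or by 42.7%, with a log2 fold change of -0.80 (SE 0.047, adjusted p = 2.28e-11).

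The member acting in apoptosis, BBC3 (ENSG00000105327, chr19:47220822-47232766, minus strand), encodes the BH3-only protein PUMA, which frees BAX and BAK to permeabilize mitochondria. It had 216, 188 and 195 normalized counts in GFP and 169, 145 and 143 in RBFOX1 libraries. It had the fewest counts of the 10, and the lowest GFP library was near the highest RBFOX1 library. Its log2 fold change of -0.42 had the largest SE of the 10, 0.104 (adjusted p = 0.00214). TP53I3 (ENSG00000115129, chr2:24077433-24085861, minus strand), a quinone oxidoreductase named PIG3 that is induced during p53-driven apoptosis, had 964, 953 and 921 normalized counts in GFP and 782, 765 and 753 in RBFOX1 libraries. Its change was the smallest of those that fell, -0.31 (SE 0.058, adjusted p = 1.72e-04), and both groups were tight around their means.

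BTG2 (ENSG00000159388, chr1:203305491-203309602, plus strand), an antiproliferative protein that recruits the CCR4-NOT deadenylase, had 475, 486 and 520 normalized counts in GFP and 256, 255 and 250 in RBFOX1 libraries. Its RBFOX1 libraries were the most alike of any member, with a coefficient of variation of 1.22%. The mean decreased by 48.5%, a log2 fold change of -0.96 (SE 0.077, adjusted p = 2.33e-09). ZMAT3 (ENSG00000172667, chr3:178960121-179072215, minus strand), a zinc finger protein that binds RNA and regulates splicing and mRNA stability, had 2645, 3117 and 3208 normalized counts in GFP and 1262, 1392 and 1415 in RBFOX1 libraries. GFP replicate 1 was low among the GFP libraries, yet still far above every RBFOX1 library. This was the largest change of the 10, from 2990 ± 302 to 1357 ± 82.4, a log2 fold change of -1.13 (SE 0.067, adjusted p = 2.66e-11).

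RRM2B (ENSG00000048392, chr8:102204502-102238961, minus strand), the p53-inducible small subunit of ribonucleotide reductase, which supplies deoxynucleotides for repair and for mitochondrial DNA in cells that are not dividing, had 3361, 3399 and 3305 normalized counts in GFP and 1745, 1915 and 1885 in RBFOX1 libraries. The groups lay far apart. The mean decreased by 44.8%, a log2 fold change of -0.86 (SE 0.050, adjusted p = 2.03e-11). FDXR (ENSG00000161513, chr17:74862497-74873031, minus strand), the mitochondrial reductase that passes electrons from NADPH to ferredoxin, had 864, 899 and 872 normalized counts in GFP and 555, 553 and 538 in RBFOX1 libraries. Its coefficient of variation was at most 2.07% in either group, and its log2 fold change was -0.68 (SE 0.061, adjusted p = 1.27e-08).

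The sestrins SESN1 and SESN2, which restrain mTORC1 signalling under stress, moved in opposite directions. SESN2 (ENSG00000130766, chr1:28259518-28282491, plus strand), which also senses leucine, had 735, 726 and 766 normalized counts in GFP and 481, 471 and 467 in RBFOX1 libraries. It fell by 0.65 on the log2 scale (SE 0.064, adjusted p = 4.7e-08). SESN1 (ENSG00000080546, chr6:108984309-109094846, minus strand) had 546, 550 and 556 normalized counts in GFP and 608, 689 and 663 in RBFOX1 libraries. It was the one member that rose, by 19.3% or 0.25 on the log2 scale (SE 0.067, adjusted p = 0.0035), and RBFOX1 replicate 1 was the lowest of its RBFOX1 libraries. The third sestrin gene, SESN3, had at most 1 count in any library and was not tested.

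GDF15 (ENSG00000130513, chr19:18374731-18389176, plus strand), a secreted stress hormone of the TGF-β family, had 4387, 3902 and 4055 normalized counts in GFP and 3054, 3066 and 3239 in RBFOX1 libraries. GFP replicate 1 was the highest library. The mean decreased by 24.2%, a log2 fold change of -0.40 (SE 0.052, adjusted p = 2.22e-06).

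**Figure D2:**
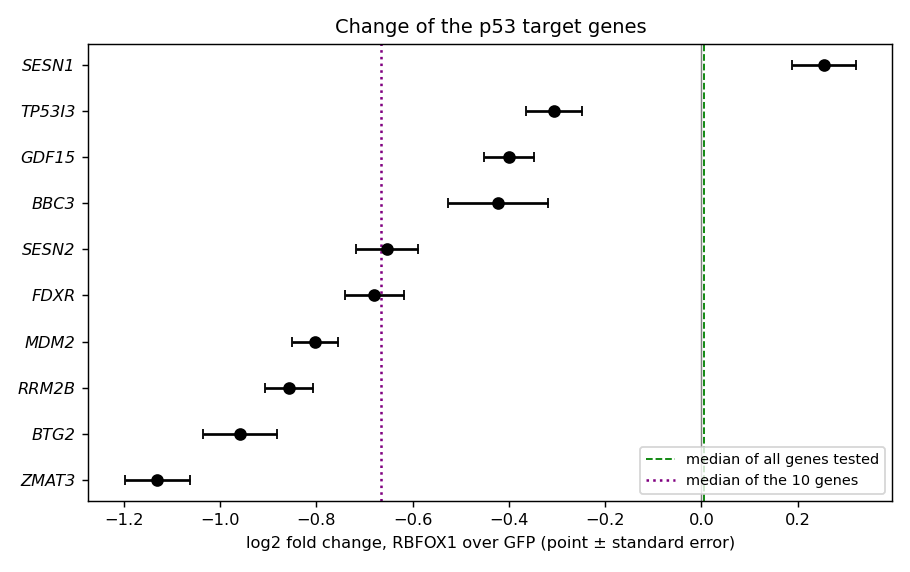
Log2 fold change of RBFOX1 over GFP for each of the 10 genes, with bars of 1 SE from edgeR's quasi-likelihood fit, a line at 0, a dashed line at the median of all genes tested and a dotted line at the median of the 10 genes. ZMAT3 is lowest at -1.13, and SESN1, at 0.25, is the one gene above 0.

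Per length, in RPKM (reads per kilobase of merged exons, scaled to library size), GDF15 was the most abundant member in both groups, at 142 ± 8.58 in GFP and 108 ± 3.56 in RBFOX1 libraries, and BBC3 the least, at 4.52 ± 0.33 and 3.45 ± 0.32. In GFP libraries GDF15 was followed by RRM2B at 44.8, MDM2 at 38.7, TP53I3 at 29.5, ZMAT3 at 19.1, FDXR at 17.6, SESN2 at 15.5, BTG2 at 12.9 and SESN1 at 5.45 RPKM, and of these neighbours the ranges of ZMAT3 and FDXR overlapped. In RBFOX1 libraries the order after GDF15 was RRM2B at 24.7, TP53I3 at 23.9, MDM2 at 22.2, FDXR at 11.0, SESN2 at 9.84, ZMAT3 at 8.65, BTG2 at 6.63 and SESN1 at 6.47 RPKM. There the ranges of RRM2B and TP53I3 overlapped, as did those of BTG2 and SESN1. ZMAT3 thus ranked 5 in GFP and 7 in RBFOX1 libraries, below FDXR and SESN2 without overlap in the latter.

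**Figure D3:**
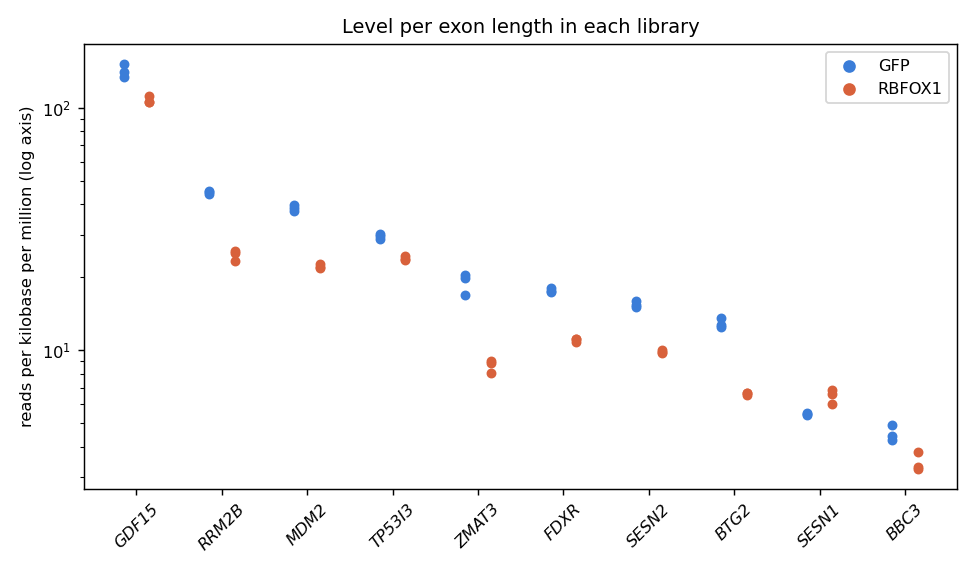
Level of each member in RPKM on a log axis, with a point for every library of the GFP and RBFOX1 groups. GDF15 stands above the other members at 142 RPKM in GFP and 108 RPKM in RBFOX1 cells, and BBC3 is lowest in both groups.

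Several members work beside a partner or a paralog, so ratios of their levels per kilobase were taken within each library, which leaves out library scaling. The 8 ratios computed, of which 6 are given, were compared by a two-sided exact permutation test, which with 3 against 3 libraries cannot give p below 0.10. SESN1 relative to SESN2 rose from 0.353 ± 0.0074 to 0.658 ± 0.050 (SD, n = 3, exact permutation p = 0.1). RRM2B relative to RRM2, the small subunit of ribonucleotide reductase used in S phase, dropped from 11.1 ± 1.08 to 1.33 ± 0.15 (exact permutation p = 0.1). The level of such a ratio depends on the merged exon lengths, here 9153 bases for RRM2 and 5391 for RRM2B, so only its change is read. In RBFOX1 libraries RRM2B averaged 1848 normalized counts, not divided by length, below RRM2, but 24.7 RPKM against 18.8 for RRM2. The order of these genes is therefore not read. RRM2 itself went from 518 ± 45.8 to 2383 ± 293 normalized counts (log2 fold change 2.21, adjusted p = 1.73e-14), and RRM1, the large subunit, from 1555 ± 53.3 to 2779 ± 152 (0.84, adjusted p = 7.25e-11), so the subunits moved in opposite directions. RRM2B relative to RRM1 went from 1.69 to 0.523. MDM2 relative to MDM4, the related inhibitor of p53, went from 5.24 ± 0.075 to 2.23 ± 0.035, and BTG2 relative to its paralog BTG3 from 0.78 to 0.259 (exact permutation p = 0.1 for each). BTG3 rose by 0.63 on the log2 scale (adjusted p = 1.23e-06), whereas BTG1 was at 1145 ± 77.2 and 1109 ± 42.6 normalized counts (log2 fold change -0.041, adjusted p = 0.625). FDXR relative to FDX1, the ferredoxin it reduces, was 3.98 ± 0.39 in GFP and 3.67 ± 0.087 in RBFOX1 libraries with overlapping groups (exact permutation p = 0.4). FDX1 fell by 0.59 on the log2 scale (adjusted p = 1.1e-04). After Benjamini-Hochberg adjustment over the 8 ratios, 7 had an adjusted p of 0.114 and that of FDXR to FDX1 remained 0.4. Among the 12 partners and paralogs listed, 9 were tested, of which 5 (55.6%) rose and 3 (33.3%) fell. All 9 averaged 50 or more normalized counts, a class in which 30.4% of genes rose and 33.4% fell. CRYZ, a quinone oxidoreductase related to TP53I3, fell by 1.08, and TOB1, a BTG family member, fell by 0.50 on the log2 scale, the latter with overlapping groups.

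**Figure D4:**
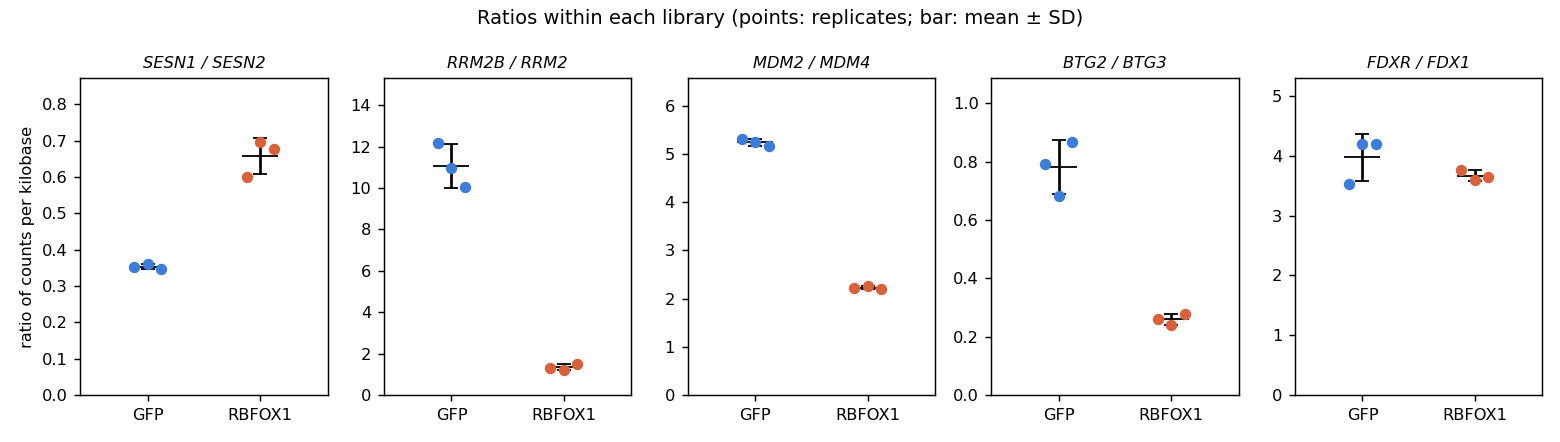
Ratio of levels per kilobase within each library for 5 of the 8 pairs of genes; points are single libraries, bars are group means ± SD, and each panel has its own linear axis from 0. The groups are separate in each panel except FDXR to FDX1, where GFP spans the RBFOX1 values.

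The other p53 targets, 60 genes written down from general knowledge with results of these data already known, mostly fell. Their direction is therefore no independent evidence beside the 10 genes. Of the 60, 55 were tested. Of the 55, 39 (70.9%) fell, 8 (14.5%) rose and 8 passed no threshold, with a median log2 fold change of -0.47, where 22.9% of all genes tested fell and 23.7% rose. The count that rose was 5 without GFP replicate 2, where 45.3% of all genes were called and 22.7% were higher, and 5 with DESeq2, which called 36.3% of all genes, 18.8% as higher and 17.6% as lower. In the main fit, 53 of these targets averaged 50 or more normalized counts. Of those 53, 38 fell and 8 rose, in a class where 33.4% of genes fell and 30.4% rose. CDKN1A, encoding the cell cycle inhibitor p21, had 10991, 10488 and 10329 normalized counts in GFP and 6131, 6231 and 6395 in RBFOX1 libraries. Its log2 fold change of -0.76 (SE 0.047, adjusted p = 4.66e-11) was close to that of MDM2. The largest falls were those of TGFA, an EGFR ligand, at -2.41 (SE 0.12, adjusted p = 2.39e-12), FAS, a death receptor, at -2.17 (SE 0.086, adjusted p = 5.04e-14), and RAP2B, a small GTPase, at -1.70 (SE 0.054, adjusted p = 2.15e-15). The largest rises were those of THBS1, a matrix glycoprotein, at 3.02 (SE 0.073, adjusted p = 2.86e-17), PLK2, a kinase of centriole duplication, at 1.37 (SE 0.046, adjusted p = 4.34e-15), and SFN, 14-3-3σ, at 1.15 (SE 0.13, adjusted p = 3.38e-07). PPM1D, the phosphatase WIP1 that dampens p53 signalling, rose from 658 ± 34.1 to 817 ± 29.1 normalized counts (log2 fold change 0.31, adjusted p = 4.03e-04).

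Further genes of this list are given by role, chosen after their values had been seen, so no count over a role is given. Of genes known from apoptosis, BAX, which permeabilizes mitochondria, fell by 1.07 (adjusted p = 6.26e-11) and the TRAIL receptor TNFRSF10B by 1.51 on the log2 scale (adjusted p = 9.02e-16). PERP (-0.85), AEN (-0.60), PMAIP1 (-0.43) and APAF1 (-0.27) also fell at an adjusted p under 0.05, as did FAS above. The decoy receptor TNFRSF10C at 0.08 (adjusted p = 0.762), the death domain protein PIDD1 at -0.04 (adjusted p = 0.795) and the apoptosis regulator TNFAIP8 at -0.03 (adjusted p = 0.858) passed no threshold. The related receptors TNFRSF10A and TNFRSF10D had too few counts to be tested. Of DNA repair genes, XPC (-0.77) and DDB2 (-0.82), which recognize UV damage, and ASCC3 (-0.35) fell, and the translesion polymerase POLH rose by 0.19 (adjusted p = 0.0219).

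**Figure D5:**
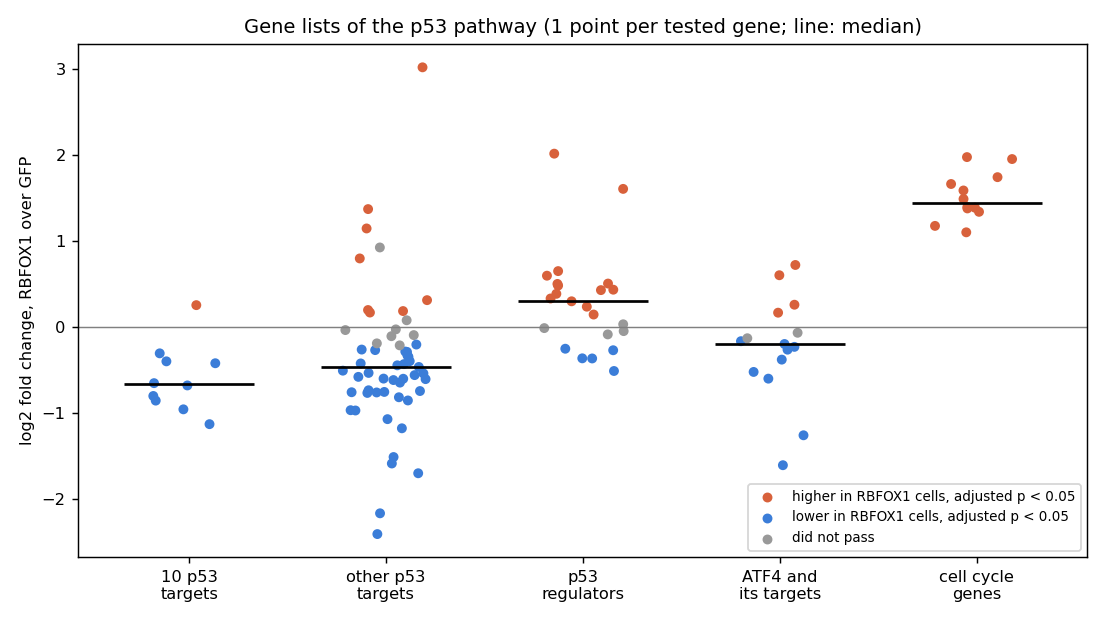
Log2 fold change of RBFOX1 over GFP for every tested gene of the gene lists, 1 point per gene, with the list median marked and calls told from genes past no threshold. The 10 members and the other p53 targets have medians of -0.67 and -0.47, whereas all 12 cell cycle genes lie between 1.10 and 1.98.

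Of 24 listed genes that act on or with p53, 23 were tested, of which 14 (60.9%) rose, 5 (21.7%) fell and 4 passed no threshold, with a median log2 fold change of 0.30. Among all genes tested 23.7% rose and 22.9% fell. Of the 21 regulators averaging 50 or more normalized counts, 12 rose and 5 fell, in a class where 30.4% of genes rose and 33.4% fell. Against the minimum fold of 1.5, 2 of the 23 were higher, close to the 8.33% of all genes, and 0 were lower, where 5.17% of all genes were. The mRNA of MDM4 rose by 0.43 (SE 0.054, adjusted p = 1.34e-06), and that of USP7, a deubiquitinase of MDM2 and p53, by 0.15 (SE 0.047, adjusted p = 0.0163). The largest rises among well-expressed regulators were those of the deacetylase SIRT1 at 0.65, the acetyltransferase CREBBP at 0.60 and the checkpoint kinase CHEK2 at 0.51, and the largest falls those of the kinases HIPK2 at -0.51 and ATM at -0.37 and of RPL5, a ribosomal protein that binds MDM2, at -0.36. The protein level of p53 was not measured here.

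p53 lowers many cell cycle genes through p21 and the DREAM repressor complex. The 12 such genes listed all rose, where 23.7% of all genes tested did, with log2 fold changes from 1.10 to 1.98 and a median of 1.44, led by BIRC5 at 1.98, CDC20 at 1.95 and PLK1 at 1.74. All 12 averaged 50 or more normalized counts, a class in which 30.4% of genes rose. They were listed with a rise of proliferation genes in these samples already known, so their direction is no independent evidence.

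SESN2 and GDF15 are also targets of ATF4, the transcription factor of the integrated stress response, so 15 genes of that response, ATF4 included, were examined beside them. Of the 15, 9 (60%) fell, 4 (26.7%) rose and 2 passed no threshold, with a median log2 fold change of -0.20. The share that rose was near the 23.7% of all genes tested, and 22.9% of all genes fell. Of the 14 averaging 50 or more normalized counts, 4 rose and 8 fell, in a class where 30.4% of genes rose and 33.4% fell. ATF4 mRNA was at 5286 ± 277 and 5047 ± 78.6 normalized counts (log2 fold change -0.07, adjusted p = 0.292). The cystine transporter SLC7A11 fell by 1.61, the pseudokinase TRIB3 by 0.60 and the lipoprotein receptor VLDLR by 0.52 on the log2 scale, whereas ATF3 rose by 0.72, DDIT4 by 0.60 and CHAC1 by 0.26.

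Because the RBFOX proteins bind the letters UGCAUG in RNA, the 3′ UTRs of the canonical transcripts were searched for TGCATG on the transcript strand, letters that can overlap the CATG core above. It was present in 4 of the 10 members, against 33.3% of 19550 genes with a 3′ UTR, namely once in BTG2 and SESN1 and 2 times each in ZMAT3 and RRM2B. The capitals mark the match, with 12 bases on each side, 5′ to 3′ on the transcript strand.
BTG2: gctagtcagcctTGCATGtattccttggct
SESN1: aagtaataaaagTGCATGtgatacaaagtt
ZMAT3, first: tagatacatctcTGCATGgtacaatttctc
ZMAT3, second: cttgtaaatatgTGCATGttgtttatgttt
The matches shown lie at chr1:203308626-203308631 in BTG2, at chr6:108985544-108985549 in SESN1, and at chr3:179021791-179021796 and chr3:179021202-179021207 in ZMAT3. The sequences of the RRM2B matches are not shown. The 3′ UTRs of the 4 genes span 2164 bases in BTG2, 3235 in SESN1, 3631 in RRM2B and 7794 in ZMAT3, against a median of 1064 over all genes, and that of MDM2, at 5695 bases, held no match. Of the 4 genes with a match, SESN1 rose, and BTG2, ZMAT3 and RRM2B, which had the largest falls of the 10, fell. These too are matches of letters, not measured binding, and a link between them and the changes was not tested.

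Markers of other cell types also differed between the groups, at low levels. Summed over PECAM1, VWF and CDH5, all 3 of which rose, endothelial markers were at 10.3 to 12.8 normalized counts in GFP and 95.9 to 109 in RBFOX1 libraries. Of the 3 epithelial markers EPCAM, CDH1 and KRT5, the latter pair rose, with a sum of 8.43 to 14.0 in GFP and 49.0 to 66.7 in RBFOX1 libraries. Of the leukocyte markers, PTPRC rose, CD68 passed no threshold and CD3E was at 0 in every library, with a sum of 12.8 to 25.5 in GFP and 52.6 to 68.5 in RBFOX1 libraries. Of the 4 neuronal markers, RBFOX3, SNAP25, SLC17A7 and GAD1, only GAD1 was called and fell, with a sum of 160 to 169 in GFP and 114 to 129 in RBFOX1 libraries. Beside the summed counts of the 10 members, 18509 to 18988 in GFP and 11516 to 11866 in RBFOX1 libraries, these are small, and their part in the result was not tested.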

How the data were processed

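RNA was sequenced from 6 libraries of A172 cells, 3 with GFP and 3 with RBFOX1, after rRNA depletion and as stranded paired-end reads. Alignment by the authors was to GRCh38 with HISAT2, and HTSeq assigned read pairs to Ensembl genes in intersection-strict mode. Pairs that could not be assigned to a single gene were left out. The deposited counts are raw, per gene and library. A table of the authors' own DESeq2 comparison (mean level, fold change, standard error, statistic and p-values per gene) was also deposited and was not used.

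Lines that name no gene stayed out of library sizes and tests. Genes whose counts summed to 10 or more were normalized by TMM and tested with edgeR 4.0.16 (quasi-likelihood, R 4.3.3), condition only, two-sided, with Benjamini-Hochberg adjustment over 20536 genes. SE was derived from the coefficient and its F statistic. The code was tested on simulated data. The edgeR p-values weigh the difference between groups against the spread between these libraries, moderated over all genes. The sources do not make clear at which step the replicates were separated, so spread between separate transductions may not be covered. A count of 0 allows up to 3 counts, or 1.82 to 5.44 normalized counts depending on depth, covering counting error only. Lengths, starts and 3′ UTRs came from a GENCODE annotation on GRCh38 later than the authors', and 56948 of 58051 gene IDs matched. Promoters came from RefSeq (GRCh38.p14).

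The 10 genes and the lists were chosen with earlier results of these data known. All 10 are named, and from each list the 3 called genes that rose most and the 3 that fell most among genes averaging 50 or more normalized counts, plus some fixed by name. Genes named by role, markers, ATF4, TP73 and TP63 were chosen otherwise. Alternatives were DESeq2 1.42.0, limma-voom (limma 3.58.1), 3 other scalings, other filters, thinning, stricter thresholds, a replicate block and leaving out each library. Some listed genes are not reported by name here.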

Additional observations from a re-analysis of the deposited data

How the results depend on the processing

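The direction of the 10 genes held under every alternative run, and 9 lower and 1 higher were called under each of them except a test against a minimum fold of 1.5 (glmTreat). That test called 4 lower (MDM2, BTG2, ZMAT3 and RRM2B) and 0 higher. It called 2773 of all genes, in place of 9581, of which 61.7% were higher, in place of 50.8%. In the same test 3 of the other p53 targets were higher and 16 lower, in place of 8 and 39, and 2 of 23 regulators were higher and 0 lower, in place of 14 and 5, where 8.33% of all genes were higher and 5.17% lower. The fewer calls follow from the required fold. The other p53 targets called higher numbered 5 with DESeq2 and 5 at an adjusted p under 0.01, and 5 to 7 when single libraries were left out, the lowest without GFP replicate 2; the cause was not tested. Scaling by library totals alone shifted the median of all genes to 0.055 and made 56.6% of the calls higher.

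The replicate numbers showed no clear pairing of the samples, which does not exclude one. Deviations of same-numbered libraries correlated at -0.172, 0.0348 and -0.0568 over 12012 genes, and not every library correlated best with its own number. With the replicate number as a block, 9046 genes were called, 44% of all genes tested, 22.3% as higher and 21.7% as lower. Under that block 9 members were lower and 1 higher, 39 other targets lower and 6 higher, and 13 regulators higher and 5 lower.

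Depth limits BBC3 most, with the fewest counts of the 10, 93 in RBFOX1 replicate 1. Its log2 fold change ranged from -0.47 to -0.32 over the alternatives. The -0.32 came from counts thinned to the smallest library, where its adjusted p from edgeR was 0.0469. With DESeq2 its adjusted p was 0.0272.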

Other observations

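Among the other p53 targets are genes of secreted and cell surface proteins, and the pair named here was chosen after their values were seen. EPHA2, an ephrin receptor, averaged 5297 ± 191 normalized counts in GFP and 2346 ± 152 in RBFOX1 libraries (SD, log2 fold change -1.18, adjusted p = 3.77e-13 from edgeR). THBS1 was higher, with 192, 179 and 222 normalized counts in GFP and 1603, 1636 and 1573 in RBFOX1 libraries, and the groups of both genes did not overlap.

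The p53 family genes TP63 and TP73 were low in both groups. TP73 had 18.8, 10.5 and 19.0 normalized counts in GFP and 54.4, 49.96 and 50.2 in RBFOX1 libraries (log2 fold change 1.61, SE 0.23, adjusted p = 5.34e-06 from edgeR). TP63 had 1.21 to 2.34 normalized counts in GFP and 5.44 to 9.99 in RBFOX1 libraries, near the limit that 3 counts set (adjusted p = 0.00805 from edgeR).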
